A study of Mus musculus with 60 samples.

Results

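The subunit genes of the muscle acetylcholine receptor, the kinase gene Musk and the guidance cue gene Sema3a were followed here in mice without myostatin. All probe sets of the MOE430 chips were taken whose platform gene symbol is Chrna1, Chrnb1, Chrnd, Chrne, Chrng, Musk or Sema3a. This gave 11 of the 45037 probe sets tested, for 7 of the 18193 genes named by a single symbol, with 3 probe sets for Chrng, 3 for Sema3a and 1 for each of the others. All 11 lie on chip A. Mstn-null mice (MSTN-null) were set against wild-type mice, both of C57BL/6J, at 13.5 d.p.c. (whole embryos), 17.5 d.p.c. (hindquarters) and d35 (pectoralis muscle, 35 days after birth). No treatment is named in the labels. The null allele and the sex of the animals are not given in the sources used here. Each sample was RNA pooled from 3 animals, with 5 pools per genotype and time point, so that a difference between single animals within a pool cannot be seen.

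The receptor of skeletal muscle is a pentameric ion channel that opens when the motor nerve releases acetylcholine. The alpha subunit (Chrna1), the beta subunit (Chrnb1) and the delta subunit (Chrnd) are shared by both forms of the receptor. The gamma subunit (Chrng) completes the fetal form, and the epsilon subunit (Chrne) replaces it in the adult form after birth. Musk encodes the receptor tyrosine kinase that answers nerve-derived agrin, together with Lrp4 and Dok7, and leads to clustering of the receptor through rapsyn. Sema3a is a secreted guidance cue that repels axons through neuropilin 1 and plexin A receptors, and in rodent muscle it is known from terminal Schwann cells and activated satellite cells.

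The promoters of the subunits that mark the fetal and the adult receptor, and of the other members that passed the test at d35, are shown because receptor subunit genes are known for 2 kinds of control site. Of the 7 members, 6 matched an entry in the RefSeq promoter set of GRCm38.p6, which holds 250 bases before and 50 bases after each start site. Chrnd did not. Capitals mark the E-box letters CANNTG, which myogenic factors of the bHLH family bind and which read the same on both strands, and the N-box core CCGGAA, searched on both strands, which is known from the synapse-specific control of receptor subunits.
Chrng, fetal subunit, chr1:87205561-87205860, plus strand: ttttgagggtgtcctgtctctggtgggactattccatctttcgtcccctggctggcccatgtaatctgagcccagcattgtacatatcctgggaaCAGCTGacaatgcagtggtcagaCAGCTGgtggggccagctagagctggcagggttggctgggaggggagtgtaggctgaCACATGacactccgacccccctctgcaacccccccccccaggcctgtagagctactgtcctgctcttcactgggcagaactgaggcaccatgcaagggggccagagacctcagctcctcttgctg
Chrne, adult subunit, chr11:70619145-70619444, minus strand: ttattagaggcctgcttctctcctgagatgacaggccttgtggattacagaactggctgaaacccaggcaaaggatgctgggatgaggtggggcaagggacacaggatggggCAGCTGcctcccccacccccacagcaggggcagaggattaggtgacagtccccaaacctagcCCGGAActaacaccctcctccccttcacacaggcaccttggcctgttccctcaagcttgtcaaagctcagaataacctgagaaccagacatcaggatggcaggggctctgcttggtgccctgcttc
Chrna1, shared subunit, chr2:73580289-73580588, minus strand: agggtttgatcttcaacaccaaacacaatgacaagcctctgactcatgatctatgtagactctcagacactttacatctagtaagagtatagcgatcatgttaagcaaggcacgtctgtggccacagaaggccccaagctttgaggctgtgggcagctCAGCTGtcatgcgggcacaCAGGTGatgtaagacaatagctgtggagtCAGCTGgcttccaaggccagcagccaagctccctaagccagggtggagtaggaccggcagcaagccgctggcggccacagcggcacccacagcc
Sema3a, guidance cue, chr5:13396534-13396833, plus strand: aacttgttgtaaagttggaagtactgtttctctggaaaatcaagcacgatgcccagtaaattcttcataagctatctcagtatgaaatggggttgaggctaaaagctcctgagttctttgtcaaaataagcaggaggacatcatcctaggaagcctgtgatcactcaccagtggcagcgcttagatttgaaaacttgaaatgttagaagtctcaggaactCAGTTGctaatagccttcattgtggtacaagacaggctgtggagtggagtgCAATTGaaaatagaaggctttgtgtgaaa
The Chrng window held 3 E-boxes, of which 2 read CAGCTG (a form of CANNTG), 155 and 132 bases before the start site. The Chrna1 window also held 3, of which 2 read CAGCTG, 92 and 44 bases before the start. The Chrne window held 1 CAGCTG, 138 bases before the start, and 1 CCGGAA, 76 bases before it. No other member's window held CCGGAA. The Sema3a window held 2 E-boxes and no CAGCTG. Of the windows not printed, Musk had 3 E-boxes with 1 CAGCTG, and Chrnb1 had 3 with none. Among all 32851 promoters of this length, 72.3% held an E-box, 16.3% held CAGCTG and 14.9% held CCGGAA on either strand. A match of letters is a description of the window and not a binding site.

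The series as a whole gave few calls between genotypes before birth and many at d35. With Storey q under 0.05 in limma over all probe sets, 243 were called in embryos (0.540%), 0 in hindquarters and 2062 in pectoralis (4.58%). At 17.5 d.p.c., 1093 probe sets (2.43%) had an unadjusted p under 0.05 in limma. That is below the share of 0.05 that p-values give on average without any difference. Benjamini-Hochberg adjustment there also called 0, and a single limma fit of all 30 pools called 14. Few calls before birth therefore do not show that the genotypes were alike. No probe set names Mstn, so the genotype labels could not be checked on the targeted gene. Skeletal muscle markers had a mean log2 level over 15 genes of 13.34 to 13.40 in the 5 MSTN-null pools of pectoralis, against 13.27 to 13.40 in the wild-type ones. In the hindquarters the mean of 10 liver markers was 8.06 in MSTN-null pool 5, and 11.27 to 12.25 in the other MSTN-null pools, against 11.32 to 12.98 in wild-type pools. The arrays of each time point had their own median, and tissue and time coincide. Genotypes were therefore compared within a time point, and levels across time points are given only as the percentile rank of a probe set among the chip A probe sets of its array.

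By their brightest probe sets, the fetal subunit had its highest ranks before birth and the adult subunit its highest ranks after birth, in both genotypes. The brightest Chrng probe set (1449532_at) ranked between the 60.7 and 66.1 percentile in the 10 embryo pools, 80.6 and 89.9 in the 10 hindquarter pools, and 46.0 and 54.0 in the 10 pectoralis pools. Its ranges did not overlap between stages, so the order was 17.5 d.p.c., then 13.5 d.p.c., then d35. Of the dimmer Chrng probe sets, 1452520_a_at ran from 8.71 to 11.5, 22.4 to 38.7 and 3.98 to 9.45, with its first and last ranges overlapping. The other, 1427728_at, ran from 9.18 to 11.1, 12.7 to 19.9 and 14.5 to 18.2, and did not have its lowest ranks at d35. Chrne was near the bottom before birth, at 16.8 to 19.9 in embryos and 14.5 to 19.3 in hindquarters, which overlap, and stood at 52.2 to 68.6 in pectoralis. These are descriptions with no test.

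The other members followed their own courses over the stages. Chrna1 ranked at 54.7 to 60.3 in embryos, 74.8 to 87.7 in hindquarters and 78.9 to 88.2 in pectoralis, and the last 2 ranges overlap. Chrnb1 stood higher at each later stage without overlap, at 43.8 to 48.4, 59.4 to 66.7 and 78.3 to 86.9. Musk did the same at 22.7 to 26.4, 32.0 to 38.1 and 43.2 to 50.9. Chrnd stayed in the middle of the arrays, at 46.9 to 51.8, 53.6 to 63.6 and 53.9 to 60.0, with the last 2 overlapping. Sema3a (1420416_at) had overlapping ranks in embryos (69.2 to 74.6) and hindquarters (63.2 to 73.2). In pectoralis it ranked at 57.7 to 64.1 in the MSTN-null pools and 37.6 to 50.1 in the wild-type pools. Of all members and stages this was the widest gap between genotypes in mean rank, at 60.2 in MSTN-null and 45.3 in wild-type.

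**Figure D1:**
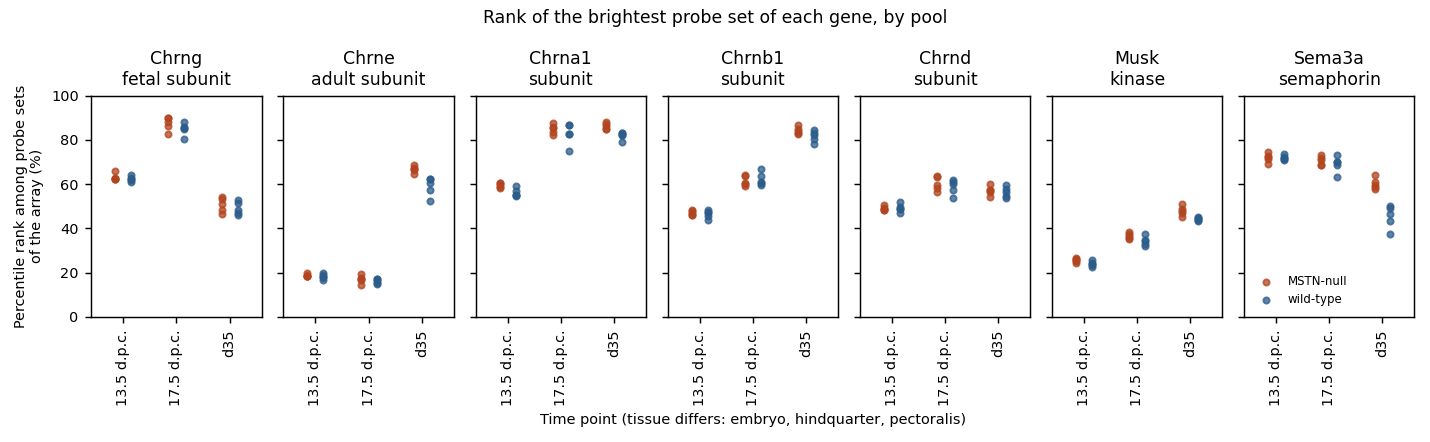
Percentile rank (%) of the brightest probe set of each gene among the chip A probe sets of its array, by time point, with 1 point per pool and MSTN-null left of wild-type. Chrng is highest at 17.5 d.p.c. (80.6 to 89.9), Chrne is low before birth and at 52.2 to 68.6 at d35, and Sema3a shows separate genotypes at d35.

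The genotypes differed in 3 of the 7 genes at d35 and in none that passed the test before birth. The study gave its ratios as wild-type over MSTN-null; every difference here is MSTN-null minus wild-type on the log2 scale, so a positive value means more signal in MSTN-null. At d35, 5 of the 11 probe sets were called, all higher in MSTN-null, against 2.08% of all probe sets called higher and 2.50% called lower. These were Chrna1, Chrne and the 3 probe sets of Sema3a. In the same 5 the MSTN-null and wild-type pools did not overlap, which 2.77% of all probe sets showed in that direction and 5.25% in either. An unadjusted p under 0.05 in limma was found for 6 of 11 (all probe sets 17.9%). The difference was positive for 11 of 11 probe sets at d35 (all probe sets 56.0%), with a median of 0.19 against 0.014 for all probe sets. At 13.5 d.p.c. 0 of 11 were called (all probe sets 0.0266% higher and 0.513% lower), 0 had groups without overlap (all probe sets 2.40%), 3 had an unadjusted p under 0.05 in limma (11.3%) and 7 had a positive difference (49.7%). At 17.5 d.p.c. 0 of 11 were called and 0 had an unadjusted p under 0.05 (all probe sets 2.43%) and 0 had groups without overlap (0.535%), while 9 of 11 differences were positive (all probe sets 49.5%). In bulk RNA, more cells of a type and more RNA per cell cannot be told apart.

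**Figure D2:**
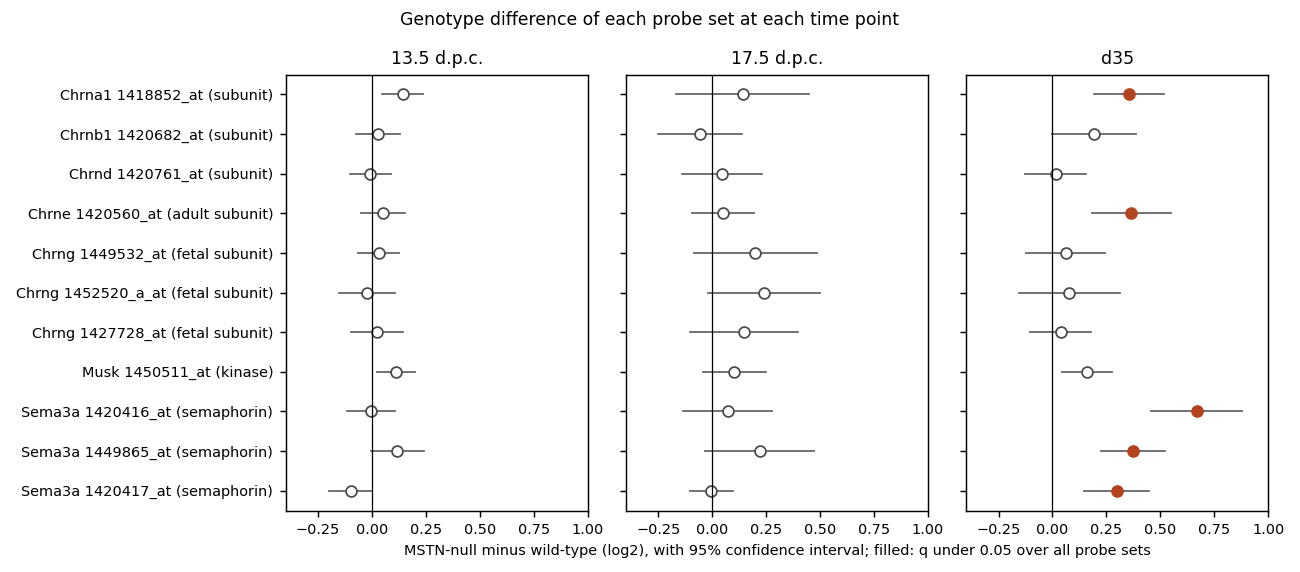
MSTN-null minus wild-type difference (log2) of the 11 probe sets in each panel (13.5 d.p.c., 17.5 d.p.c., d35), with 95% confidence intervals from limma (5 pools per genotype). Filled points have q under 0.05 over all 45037 probe sets; they appear only at d35, for Chrna1, Chrne and Sema3a, where the differences run from 0.30 to 0.67.

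Chrne, the subunit of the adult receptor, was higher in MSTN-null pectoralis. At d35 its pools read 7.64, 7.57, 7.77, 7.68 and 7.71 in MSTN-null and 7.39, 6.99, 7.22, 7.50 and 7.44 in wild-type (log2 intensity, pools 1 to 5). Every MSTN-null pool stood above every wild-type pool, and the wild-type pools spread more widely, with pool 2 lowest. The means were 7.67 ± 0.075 and 7.31 ± 0.21 (SD, n = 5 each), a difference of 0.37 (SE 0.086, 95% confidence interval 0.18 to 0.55) or 1.29-fold, with q = 0.0243 in limma. The call was lost without MSTN-null pool 3 (difference 0.34, q = 0.0653) and without wild-type pool 3 (0.34, q = 0.0812), and kept without wild-type pool 2 (0.29, q = 0.0257). Before birth, when Chrne was near the bottom of the arrays, the genotypes overlapped. In embryos it ran from 6.32 to 6.48 in MSTN-null and from 6.20 to 6.43 in wild-type (difference 0.050, SE 0.048, q = 0.557), and in hindquarters from 6.04 to 6.37 in MSTN-null and from 6.06 to 6.20 in wild-type (0.051, SE 0.065, q = 1).

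Chrng, the subunit of the fetal receptor, gave no call in any tissue. At d35 the brightest probe set (1449532_at) read 7.08, 6.93, 7.06, 6.72 and 6.80 in MSTN-null pools and 6.75, 6.71, 6.82, 7.06 and 6.95 in wild-type pools. The groups overlapped over nearly their whole range, and the difference was 0.061 (SE 0.085, interval -0.12 to 0.24, q = 0.488). The dimmer sets gave 0.037 (SE 0.066, q = 0.525) and 0.078 (SE 0.11, q = 0.489), and turned to -0.0092 and -0.023 without wild-type pool 2. At 17.5 d.p.c., where Chrng ranked highest, the MSTN-null hindquarter pools read 9.95, 9.62, 10.26, 9.89 and 10.16 and the wild-type pools 9.50, 9.67, 10.06, 9.82 and 9.83. MSTN-null pools 3 and 5 were the highest and wild-type pool 1 the lowest, with the others mixed. The difference was 0.20 (SE 0.13, interval -0.085 to 0.48, unadjusted p = 0.152 in limma), with 0.15 and 0.24 in the dimmer sets, all at q = 1. Without wild-type pool 1 the brightest set gave 0.13, and with each pool left out in turn it gave 0.13 to 0.29. In embryos the means were 8.68 ± 0.078 in MSTN-null and 8.65 ± 0.054 in wild-type (SD, n = 5 each), a difference of 0.030 (SE 0.045, q = 0.64). At d35 the interval of Chrng (-0.12 to 0.24) and that of Chrne (0.18 to 0.55) overlap, and the difference between the 2 subunits was not tested.

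Of the subunits shared by both receptor forms, Chrna1 was higher in MSTN-null at d35. This subunit carries most of the acetylcholine binding site. Its d35 pools read 9.17, 9.11, 8.85, 9.04 and 8.92 in MSTN-null and 8.75, 8.46, 8.66, 8.80 and 8.65 in wild-type, with no overlap. The difference was 0.35 (SE 0.075, interval 0.19 to 0.52, 1.28-fold, q = 0.0144), and it was called with each pool left out in turn (0.30 to 0.39). In embryos Chrna1 read 8.54, 8.55, 8.47, 8.45 and 8.51 in MSTN-null pools and 8.30, 8.34, 8.39, 8.29 and 8.49 in wild-type pools. Only wild-type pool 5 reached into the MSTN-null range, and the difference of 0.14 (SE 0.044) had an unadjusted p = 0.00607 and q = 0.17 in limma. In hindquarters the pools overlapped, at 9.57 to 9.93 in MSTN-null and 9.14 to 9.91 in wild-type. The difference there was again 0.14 (SE 0.14, q = 1), and it was 0.025 without wild-type pool 1, the lowest of the 10.

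Chrnb1 and Chrnd, the other shared subunits, did not pass the test at any stage. Chrnb1, which anchors the receptor to the clustering machinery, read 9.02, 8.90, 8.71, 8.72 and 8.82 in MSTN-null and 8.87, 8.41, 8.66, 8.79 and 8.49 in wild-type at d35. The groups overlapped, with wild-type pools 2 and 5 lowest, and the difference was 0.19 (SE 0.090, interval -0.00105 to 0.39, unadjusted p = 0.0511, q = 0.182 in limma). Its differences before birth were 0.027 (SE 0.047) in embryos and -0.057 (SE 0.089) in hindquarters. Chrnd at d35 read 7.35, 7.21, 7.18, 7.06 and 7.22 in MSTN-null and 7.17, 7.11, 7.07, 7.37 and 7.23 in wild-type. Its difference of 0.014 (SE 0.067, interval -0.13 to 0.16, q = 0.602) was the smallest of the 11. It was also small in embryos (-0.0094, SE 0.045) and in hindquarters (0.045, SE 0.085). Chrnd and Chrng lie beside each other on chromosome 1, which also holds Mstn, 232 and 233 measured genes away from it among 1058 in the gene order of GRCm38.p6.

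Musk, the kinase that receives the agrin signal, was slightly higher in MSTN-null on average at each stage without a call. At d35 it read 6.78, 6.92, 6.83, 6.66 and 6.83 in MSTN-null and 6.62, 6.64, 6.60, 6.73 and 6.64 in wild-type. MSTN-null pool 4 was the only MSTN-null pool inside the wild-type range. The difference was 0.16 (SE 0.054, interval 0.043 to 0.28, unadjusted p = 0.0111, q = 0.0881 in limma), and it passed at q = 0.0462 when MSTN-null pool 4 was left out. In embryos the MSTN-null pools read 6.81, 6.89, 6.84, 6.84 and 6.85 and the wild-type pools 6.63, 6.74, 6.83, 6.76 and 6.72. Of the wild-type pools only pool 3 lay inside the MSTN-null range, and the difference was 0.11 (SE 0.041, unadjusted p = 0.017, q = 0.242). The hindquarter difference was 0.10 (SE 0.066, q = 1).

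Sema3a gave the largest genotype difference among the members. The brightest probe set (1420416_at) read 7.53, 7.39, 7.25, 7.29 and 7.33 in MSTN-null pectoralis and 6.73, 6.34, 6.60, 6.94 and 6.84 in wild-type pectoralis. The lowest MSTN-null pool (7.25) stood well above the highest wild-type pool (6.94). The means were 7.36 ± 0.11 and 6.69 ± 0.24 (SD, n = 5 each), a difference of 0.67 (SE 0.10, interval 0.46 to 0.88) or 1.59-fold with q = 0.00231. This call was kept in all 19 alternatives run at d35, including each pool left out in turn, with adjusted p between 1.65e-05 and 0.0109.

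The other Sema3a probe sets pointed the same way at lower signal. The set 1449865_at, between the 10.1 and 17.4 percentile at d35, read 4.94, 4.93, 5.17, 5.10 and 5.18 in MSTN-null and 4.79, 4.57, 4.67, 4.61 and 4.82 in wild-type. Its groups were separate, with a difference of 0.37 (SE 0.069, q = 0.0079). The set 1420417_at lay between the 3.07 and 8.31 percentile and read 4.21, 4.33, 4.09, 4.03 and 4.37 in MSTN-null and 3.88, 3.95, 3.86, 3.81 and 4.02 in wild-type. Its groups were barely apart, with 4.025 in the lowest MSTN-null pool and 4.0247 in the highest wild-type pool, and a difference of 0.30 (SE 0.070, q = 0.0248). That last call was lost without MSTN-null pool 1 (q = 0.0552), 2 (q = 0.0588) or 5 (q = 0.0501), or without wild-type pool 3 (q = 0.0812). The 3 sets measure the same gene and are not independent of each other.

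Before birth the genotypes overlapped in all 3 Sema3a probe sets, of which only 1420416_at was bright. The set 1449865_at ranked at 30.7 to 38.2 in embryos and 23.0 to 36.9 in hindquarters. The set 1420417_at ranked at 3.33 to 5.16 in embryos and 1.27 to 3.10 in hindquarters. In embryos 1420416_at read 9.16, 9.26, 8.98, 9.12 and 9.08 in MSTN-null and 9.10, 9.24, 9.10, 9.15 and 9.05 in wild-type, with a difference of -0.0061 (SE 0.052, q = 0.736). The other 2 sets went opposite ways there, 0.12 for 1449865_at (SE 0.057, unadjusted p = 0.0582 in limma) and -0.10 for 1420417_at (SE 0.046, unadjusted p = 0.0488). In hindquarters 1420416_at ran from 8.64 to 8.93 in MSTN-null pools and from 8.50 to 8.98 in wild-type pools, with a difference of 0.071 (SE 0.093). The set 1449865_at gave 0.22 (SE 0.11, unadjusted p = 0.0808) and 1420417_at gave -0.00414 (SE 0.046), all at q = 1.

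**Figure D3:**
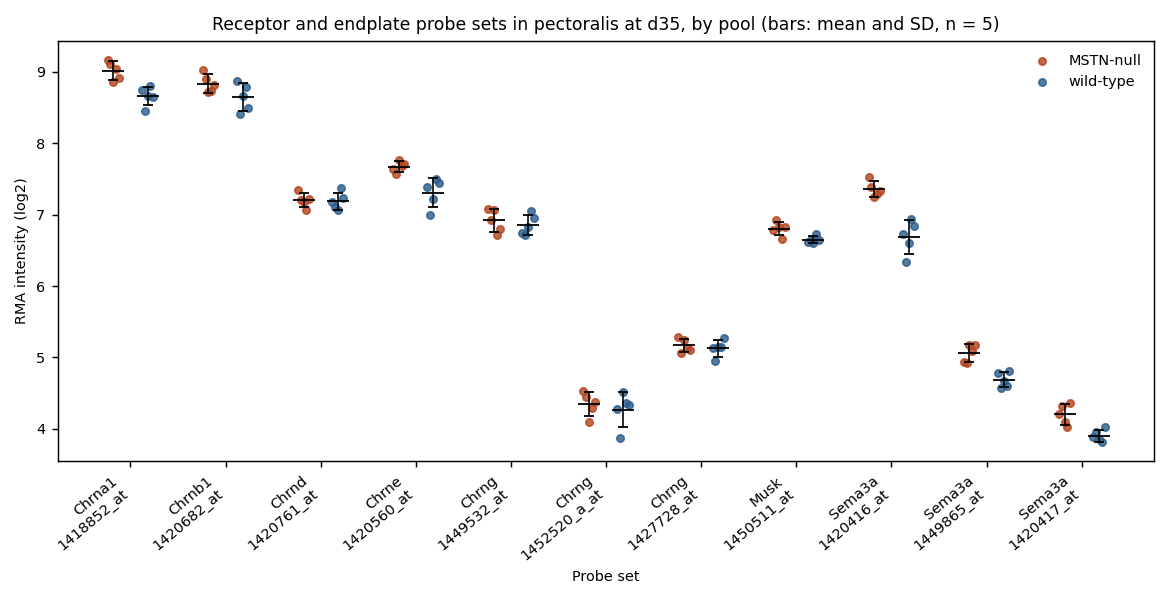
RMA intensity (log2) of the 11 probe sets in pectoralis at d35, with 1 point per pool, MSTN-null left of wild-type, and bars for the mean and SD (n = 5). The genotypes are separate for Chrna1, Chrne and the 3 Sema3a probe sets and overlap for the other 6.

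Sema3a was the only member for which the change of the genotype difference between stages passed the test. In a limma fit of all 30 pools the difference at d35 minus that at 13.5 d.p.c. was 0.67 for 1420416_at (SE 0.13, q = 0.00442) and 0.40 for 1420417_at (SE 0.078, q = 0.00673), against 1.17% of all probe sets called. The difference at d35 minus that at 17.5 d.p.c. was 0.60 for 1420416_at (SE 0.13, q = 0.0152), against 0.715% of all probe sets. For 1420417_at it was 0.30 (q = 0.055), and for 1449865_at the contrasts were 0.25 (q = 0.347) and 0.15 (q = 0.467). The set 1420417_at lay near the bottom of the arrays at every stage. Its embryo difference (-0.10) was opposite in sign to that of 1449865_at (0.12). Chrne had contrasts of 0.32 with embryos (SE 0.10, unadjusted p = 0.00407, q = 0.119) and 0.31 with hindquarters (SE 0.10, unadjusted p = 0.00414, q = 0.131). Chrna1 had 0.21 in each (SE 0.14, q = 0.494 and 0.407), so its larger difference at d35 was not shown to exceed that before birth. Between 17.5 and 13.5 d.p.c. 0 of 11 were called, and 0 of all probe sets.

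Single pools weighed on several of these values. Wild-type pool 2 at d35 was the lowest of the 10 pools for 8 of the 11 probe sets, and MSTN-null pool 1 the highest for 6. Without wild-type pool 2 all 5 calls held, at 0.30 for Chrna1, 0.29 for Chrne and 0.58, 0.34 and 0.31 for Sema3a. Without wild-type pool 3 the calls numbered 3. When wild-type pools 2 and 3 were both removed, a choice made after seeing the data, 1 of the 11 was called (1420416_at), against 638 of all probe sets. In hindquarters wild-type pool 1 was lowest for 7 of the 11.

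Of the genes that work beside the receptor, Rapsn, Ache, Dtna and Sntb1 were higher in MSTN-null pectoralis, and Agrn was lower. Lists of such genes were read by the brightest probe set of each gene, of which 2.71% were called higher and 3.31% lower over all 18193 genes at d35. Of 15 measured genes from agrin to MuSK signalling, 1 rose and 1 fell. Rapsn, whose product clusters the receptor, averaged 8.42 ± 0.045 in MSTN-null and 8.16 ± 0.17 in wild-type (SD, n = 5 each), a difference of 0.26 (SE 0.073, q = 0.0489). Agrn, which encodes agrin, averaged 7.94 ± 0.085 in MSTN-null and 8.15 ± 0.084 in wild-type, a difference of -0.21 (SE 0.057, q = 0.0436), although its dimmer probe set gave 0.15 (q = 0.136). Both lie at the edge of the threshold: the Rapsn call was lost in 11 of 19 alternatives (q up to 0.275), among them all single pools left out except wild-type pools 4 and 5, and the Agrn call in 12 (q up to 0.14), among them all except MSTN-null pool 2 and wild-type pool 2. Dok7 (0.054, q = 0.405) and Lrp4 (-0.18, q = 0.209), which encode the partners of MuSK, did not pass.

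The esterase and the scaffold gave firmer differences. Ache, the enzyme that ends the signal by splitting acetylcholine, averaged 8.88 ± 0.10 in MSTN-null and 8.42 ± 0.15 in wild-type, a difference of 0.46 (SE 0.075, 1.38-fold, q = 0.0039). It was the only call among 13 genes of the synaptic basal lamina and esterase, and held in all 19 alternatives. Among 11 genes of the postsynaptic scaffold and channels, 2 rose and 0 fell. Dtna, which encodes alpha-dystrobrevin of the dystrophin complex, averaged 9.43 ± 0.14 in MSTN-null and 8.79 ± 0.19 in wild-type, a difference of 0.64 (SE 0.091, 1.55-fold, q = 0.00193), and also held in all 19. Its other 6 probe sets were all positive, and 3 of them had q under 0.05 (0.0404, 0.0195 and 0.0101). Sntb1, a syntrophin that binds dystrobrevin, gave 0.29 (SE 0.065, q = 0.0199). This call was lost in 3 of 19 alternatives (q up to 0.12), among them without wild-type pool 3 (q = 0.0563). Utrn, the synaptic relative of dystrophin, did not pass (-0.090, q = 0.265).

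**Figure D4:**
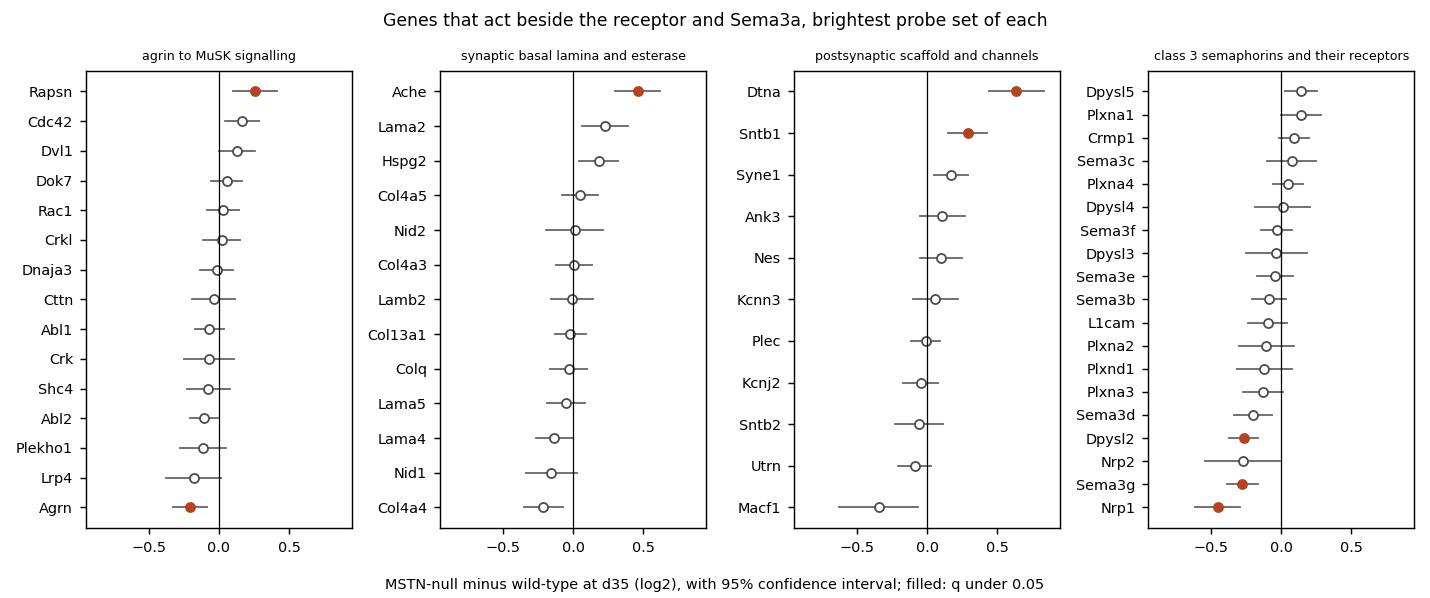
MSTN-null minus wild-type difference (log2) at d35 for genes that act beside the receptor and Sema3a, brightest probe set of each, with 95% confidence intervals from limma (5 pools per genotype). Filled points have q under 0.05: Rapsn, Ache, Dtna and Sntb1 lie above 0, and Agrn, Dpysl2, Sema3g and Nrp1 below.

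A receptor of Sema3a was lower in MSTN-null pectoralis. Nrp1, which encodes neuropilin 1, averaged 8.82 ± 0.11 in MSTN-null pectoralis and 9.27 ± 0.14 in wild-type pectoralis, a difference of -0.45 (SE 0.073, 0.73-fold, q = 0.00377). All 4 of its probe sets had q under 0.05, with differences of -0.39, -0.45, -0.53 and -0.55, and the call on the brightest held in all 19 alternatives. Of 19 other genes of class 3 semaphorin signalling (ligands other than Sema3a, receptors and intracellular mediators), 0 rose and 3 fell. Beside Nrp1 these were the ligand Sema3g (-0.28, q = 0.00823) and Dpysl2 (-0.27, q = 0.00706), an intracellular mediator of semaphorin signals. The dimmer Dpysl2 probe set gave 0.087 (q = 0.351). Neuropilin 1 is also present on endothelial cells, whose markers were not among the lists.

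Chrna9, a nicotinic subunit known from hair cells of the inner ear, was the only call among 10 other nicotinic subunits, at 7.11 ± 0.16 in MSTN-null and 6.51 ± 0.18 in wild-type (difference 0.60, SE 0.091, 1.52-fold, q = 0.00265), and it held in all 19 alternatives. Its 2 dimmer probe sets gave 0.012 (q = 0.595) and 0.10 (q = 0.26), so the probe sets do not agree. Of 13 genes known to respond to denervation, 2 rose, Gadd45a (0.55, SE 0.12, q = 0.0144), a growth arrest gene, and Myh8 (0.44, SE 0.10, q = 0.0168), the perinatal myosin heavy chain. The Gadd45a call was lost without wild-type pool 3 (q = 0.0535) and without wild-type pools 2 and 3 together (q = 0.0601). The Myh8 call was lost in the single fit of 30 pools (q = 0.0539) and without wild-type pools 2 and 3 together (q = 0.093). Myog (0.12, SE 0.19, q = 0.513) and Runx1 (0.0087, SE 0.076, q = 0.622), which encode transcription factors of that response, did not pass. Of 9 genes for myogenic bHLH factors and their partners, which include the Id genes, 0 rose and 2 fell, Tcf4 (-0.24, q = 0.0186) and Id3 (-0.30, q = 0.043). The Id3 call was lost in 9 of 19 alternatives (q up to 0.237) and the Tcf4 call in 4 (q up to 0.117). Among the single pools, Tcf4 was lost without MSTN-null pool 3 or wild-type pool 3, and Id3 without MSTN-null pools 1, 2, 3 or 5 or wild-type pools 2, 3 or 4. Of 11 genes of neuregulin and synapse-specific transcription 0 were called at q under 0.05, 3 had an unadjusted p under 0.05 in limma, the first being Prkar1a (0.22, q = 0.0689), a regulatory subunit of protein kinase A. Gabpa, which encodes a factor that binds the N-box, gave -0.17 (q = 0.125).

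Some markers of other cells differed between genotypes at d35, and the marker lists are given beside the members. White adipocyte markers were lower in 7 of 7, with a median of -0.48, and their mean level was 8.86 to 9.70 in MSTN-null, against 9.67 to 9.93 in wild-type. Of these Cidec (-0.98), Lpl (-0.41), Pparg (-0.55) and Fabp4 (-0.40) were called, with q from 0.0144 to 0.0301, and without wild-type pool 3 none of these 4 was (q 0.0501 to 0.0963). Fabp4 was also lost without MSTN-null pools 1, 3 or 4 or wild-type pool 2 (q up to 0.0681), and Pparg without MSTN-null pools 2 or 4 or wild-type pool 2 (q up to 0.0606). Muscle fibre markers were higher in 14 of 15, with a median of 0.11. Of these Cav3 (0.43, q = 0.00798) and Casq1 (0.23, q = 0.0407) were called higher and Mb, myoglobin, lower (-1.19, q = 4.92e-06). The Casq1 call was lost in 12 of 19 alternatives (q up to 0.253), among them all single pools left out except wild-type pools 1 and 4. Motor neuron and presynaptic genes had a median of -0.020 with 0 of 15 called, and 2 with an unadjusted p under 0.05 in limma. Of 8 Schwann cell markers, with a median of -0.014, S100b was called (-0.22, q = 0.0345). Their mean level was 7.75 to 7.85 in MSTN-null, against 7.83 to 8.06 in wild-type. The S100b call was lost in 10 of 19 alternatives (q up to 0.167), among them all single pools left out except MSTN-null pool 3 and wild-type pools 2 and 4. In hindquarters the motor neuron and presynaptic genes had a mean level of 7.52 to 7.62 in MSTN-null, against 7.64 to 7.73 in wild-type, and the muscle fibre markers one of 11.71 to 12.09 in MSTN-null, against 11.53 to 12.07 in wild-type. The part of these markers in the receptor and Sema3a differences was not tested. No gene of any of these lists was called at 13.5 d.p.c., where 0.0275% of all genes were higher and 0.269% lower, or at 17.5 d.p.c., where none was. The nearest was Tcf4 in embryos (-0.24, SE 0.055, unadjusted p = 0.000608, q = 0.063 in limma), which passed in 4 alternatives, among them without wild-type pool 5 (-0.28, q = 0.0154).

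The genes whose ranks lay closest to each member over the 30 chip A arrays were found by the root mean square difference in percentile rank. The closest were Thbs4 to Chrna1 (2.45 percentile points), Nos1 to Chrnb1 (3.06), Tbx5 to Chrnd (1.99), Mfn1 to Chrne (3.80), Thbs2 to Chrng (3.23), Apobr to Musk (2.97) and Blm to Sema3a (4.38). Tmbim1 and Gamt came next for Chrna1, Rxrg and Gstm2 for Chrnb1, and Sel1l and Ppfia4 for Chrnd. Slc14a2 and Sod2 came next for Chrne, Hspa4 and Meg3 for Chrng, Cpsf4l and Sypl for Musk, and Phf13 and Shmt1 for Sema3a. No member was among the closest of another member.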

How the data were processed

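RNA from 30 pools of 3 mice was hybridised to Affymetrix MOE430A and MOE430B chips (60 arrays). Background correction, normalization and summary were done by the authors with RMA (R package affy, version not given in the sources used here), and the deposited values are log2 intensities. RMA summarises probes against all arrays of a run, so small shifts can be shared between arrays. Platform annotation gave 34945 probe sets 1 gene symbol, 932 several and 9160 none. Control probe sets (64 per chip) were dropped and the 100 probe sets shared by the chips were read from chip A, which left 45037. MSTN-null minus wild-type differences were fitted with limma 3.58.1 (R 4.3.3) for each time point, as in the study's methods, and for changes between time points in a single fit. Both chips were fitted together here. With each chip on its own the embryo calls numbered 283, the count the study reported for that stage. Storey q (lambda 0.05 to 0.95 in steps of 0.05) was taken over all probe sets, and a call means q under 0.05. Replicates are pools of different animals; p-values measure the spread between 5 pools per genotype, not between animals, and this number limits the precision. No 2 arrays were identical.

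The members and gene lists were chosen with earlier results of these data known. List genes were named where called, at most 6 per list by smallest q, or else at most 2 by smallest p; Dok7, Lrp4, Utrn, Myog and Runx1 were named for their roles after their values were seen. Some genes of the lists were not analysed here, and each count is over the genes that were. Tested on simulated data of 45037 probe sets, the fit recovered 28% of 1.15-fold, 74% of 1.25-fold and 100% of 1.5- and 2-fold changes in embryos, 4%, 32%, 74% and 88% in hindquarters, and 10%, 50%, 84% and 100% in pectoralis, so most changes of 1.15-fold were missed. Alternatives were Benjamini-Hochberg adjustment, each chip on its own, a minimum mean of 6, a further quantile normalization, eBayes with trend and robust, a single fit of 30 pools, the replicate number as a block, 1 probe set per gene and each pool left out in turn. Promoter windows came from RefSeq (GRCm38.p6). Figures were drawn with matplotlib 3.10.9.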

Additional observations from a re-analysis of the deposited data

Results flagged for a closer look

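In embryos, 1 MSTN-null pool stood apart from the other 4 for Chrng: pool 1 read 8.8151 for 1449532_at, against 8.6613 in the nearest and 8.629 in the farthest of the others. Among 66 groups of 5 pools examined this was the only such gap, while chance flags about 1 in 20 such groups. The genotype difference of Sema3a changed between stages for 1420416_at and 1420417_at by a test of the change itself. At d35 against 13.5 d.p.c. it changed by 0.67 for 1420416_at and 0.40 for 1420417_at, a set near the bottom of the arrays. At d35 against 17.5 d.p.c. it changed by 0.60 for 1420416_at. The remaining set, 1449865_at, passed in neither contrast (0.25, q = 0.347, and 0.15, q = 0.467 in limma).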

How the results depend on the processing

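No member was called at 13.5 or 17.5 d.p.c. under any alternative run. At d35 the brightest Sema3a set was called under all 19, and the count of 5 called probe sets went to 3 with a minimum mean of 6, 3 with 1 probe set per gene (both leave out dim Sema3a sets), 1 without wild-type pools 2 and 3 (added after seeing the data, where Chrna1 had q = 0.0909 and Chrne q = 0.0876) and 3 to 6 with each pool left out. The 2062 calls over all probe sets at d35 became 1324 with Benjamini-Hochberg, 1345 with 1 probe set per gene, 638 without wild-type pools 2 and 3, and 777 to 2003 with each pool left out (777 without wild-type pool 3, 1066, 1223 and 1374 without MSTN-null pools 3, 1 and 4). The 243 at 13.5 d.p.c. became 159 with Benjamini-Hochberg, 0 in the single fit, 9 with 1 probe set per gene and 1 to 479 with each pool left out (1, 85, 46 and 479 without wild-type pools 1, 2, 3 and 5, and 68, 31, 33 and 26 without MSTN-null pools 1, 3, 4 and 5). The 0 at 17.5 d.p.c. became 14 in the single fit. The cause was not tested where the construction of an alternative does not show it.

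The members' changes between d35 and 17.5 d.p.c. numbered 1, and 2 with trend and robust and with the replicate block. With each pool left out they numbered 1 to 2, the higher count without d35 MSTN-null pool 3 or 4 or wild-type pool 5. The labels do not say that a replicate number marks a shared batch, and at no stage did every same-numbered pair correlate above 0.1: correlations of same-numbered pools ran from -0.10 to 0.0757, -0.199 to 0.485 and -0.172 to 0.139 in embryos, hindquarters and pectoralis, and 0, 3 and 0 of 5 pools correlated best with their own number. In hindquarters these were pairs 1, 3 and 5 (0.304, 0.388 and 0.485), a hint from the data and not from the design. With the block the calls numbered 204 in embryos, 0 in hindquarters and 1854 in pectoralis, where 5 members were called, while Agrn (q = 0.0945), Rapsn (q = 0.0655) and Casq1 (q = 0.0573) were not.

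Differences near 0 changed sign. Quantile normalization gave -0.00170 for Chrng 1427728_at and 0.00449 for Sema3a 1420416_at at 13.5 d.p.c., and 0.00349 for Sema3a 1420417_at at 17.5 d.p.c. Without wild-type pools 2 and 3 Chrnd gave -0.053 and Chrng 1427728_at -0.020 at d35. With each pool left out, the ranges at 13.5 d.p.c. were -0.00843 to 0.048 for Chrnb1, -0.029 to 0.022 for Chrnd, -0.00756 to 0.059, -0.00436 to 0.052 and -0.069 to 0.00604 for Chrng 1427728_at, 1449532_at and 1452520_a_at, and -0.041 to 0.029 for Sema3a 1420416_at. At 17.5 d.p.c. they were -0.011 to 0.083 for Chrnd, -0.000925 to 0.081 for Chrne and -0.024 to 0.015 for Sema3a 1420417_at. At d35 they were -0.021 to 0.059 for Chrnd, -0.00921 to 0.074 for Chrng 1427728_at and -0.023 to 0.14 for Chrng 1452520_a_at. Signal of the dim sets near the bottom of the arrays limits what their differences can show.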
